A study of Mus musculus with 4 samples.

Results

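Retinoic acid, the active form of vitamin A, was followed here through 9 genes that make, store, degrade or answer it, taken by symbol from the 32285 genes of the 4 count matrices. All 9 were found: Aldh1a1, Aldh1a2, Aldh1a3 and Adh1 for synthesis, Dhrs3 and Cyp26b1 for removal, Crabp1 and Crabp2 for binding in the cytosol, and Rarb as receptor and response gene. The study sorted living tdTomato-positive, DAPI-negative cells from lungs of E16.5 (embryonic day) mouse embryos and profiled them by droplet-based single-cell RNA sequencing, which reads transcripts at the 3' end. Cre controls and Myrf mutants gave 2 libraries each, named here control 1 and 2 and mutant 1 and 2. Myrf encodes a membrane-bound transcription factor.

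Embryos came from one kind of cross, in which a Myrf Fl/Fl parent with R26TdTomato on both alleles was mated to a Wt1creERT2 parent that was Myrf Fl/Fl. Tamoxifen was injected at E12.5 in all groups, so that controls as well as mutants had Cre activity and tdTomato. As written, both parents carry Myrf Fl/Fl, and the labels do not say in which Myrf alleles the Cre controls differed from the mutants. The Cre is driven by Wt1, a gene of mesothelium (the epithelial sheet on the lung surface) that other cells of the embryo also use, and the reporter marks recombined cells together with all their descendants. Each genotype was a pool of lungs from 3 to 5 embryos, assigned by lung and cell shape before PCR typing. Whether both libraries of one genotype shared a pool is not stated in the labels, so p-values measure only the spread between these libraries, which may be technical.

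In the embryo, retinol is oxidised reversibly to retinaldehyde by alcohol and retinol dehydrogenases, and retinaldehyde is oxidised irreversibly to retinoic acid by the ALDH1A enzymes. Retinoic acid enters the nucleus, binds heterodimers of retinoic acid receptors and retinoid X receptors on paired DNA half-sites, and is cleared by the CYP26 enzymes. In the developing lung, retinoic acid is known for its role in forming the lung bud and later in alveolar formation, and Aldh1a2 is a known gene of coelomic mesothelium.

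The response gene Rarb is known for a retinoic acid response element at its downstream promoter, 2 direct half-sites with 5 bases between them. The stretch below is shown because it is what makes Rarb a readout of the pathway, and the stretch from Cyp26a1, which encodes a CYP26 enzyme, because that gene was the other of the listed pathway genes with such a pair. Both are from RefSeq (GRCm38.p6, the mm10 build), 5′ to 3′ on the gene's strand, with the half-sites in capitals. The Rarb stretch is chr14:16575477-16575589 on the minus strand, and the pair starts 53 bases before the start site. The Cyp26a1 stretch is chr19:37697716-37697807 on the plus strand, where the pair reads on the opposite strand and starts 32 bases before the start site.
Rarb: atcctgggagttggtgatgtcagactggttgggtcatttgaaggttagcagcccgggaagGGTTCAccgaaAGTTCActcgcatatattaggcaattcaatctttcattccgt
Cyp26a1: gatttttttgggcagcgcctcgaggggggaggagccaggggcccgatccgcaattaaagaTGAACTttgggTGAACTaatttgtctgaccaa

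The half-sites searched were AGGTCA or AGTTCA or GGGTCA or GGTTCA, on both strands, in windows from 250 bases before to 50 bases after each start site. Pairs 5 bases apart occurred in 32 of 32851 promoters (0.0974%), in 1 of the 7 members with a promoter entry (Rarb) and in 2 of 40 pathway genes with an entry. Pairs 2 bases apart occurred in 88 promoters (0.268%) and in none of the 7 members. A match is a description of letters and not of binding. Cyp26a1 itself was listed at 0 UMIs in every cluster and library with at least 20 cells.

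Because the study deleted Myrf, the same windows were searched for CTGGCAC or CTGGTAC, a motif known for MYRF, on both strands. It was present in 2331 of the 32851 promoters (7.1%) and in 1 of the 7 members. That member was Cyp26b1, which encodes the CYP26 enzyme found in these cells. The stretch is shown since Cyp26b1 is the member with the smallest p between the genotypes below. It lies at chr6:84593924-84594010 on the minus strand (RefSeq, GRCm38.p6), and the match, in capitals, reads on the opposite strand and starts 160 bases before the start site.
Cyp26b1: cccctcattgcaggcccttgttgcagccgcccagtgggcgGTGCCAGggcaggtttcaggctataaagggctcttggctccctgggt

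In GENCODE vM21 (mm10) the members are protein-coding genes. Aldh1a1 lies at chr19:20492715-20643465, Aldh1a2 at chr9:71215789-71296243, Aldh1a3 at chr7:66390890-66427517 and Adh1 at chr3:138260991-138290698. Cyp26b1 lies at chr6:84571414-84593908, Crabp1 at chr9:54764748-54773110, Crabp2 at chr3:87948666-87953376, Rarb at chr14:16430839-16819156 and Dhrs3 at chr4:144892827-144928209. Aldh1a1, Adh1 and Rarb each overlap an annotated gene on the opposite strand (C730002L08Rik, Gm16559, and Top2b with Gm48162). Whether counting used strand is not given in the sources used here, so reads of those partners could not be told apart from theirs if it did not.

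The 4 libraries kept 281, 3503, 411 and 4275 cells (control 1, control 2, mutant 1, mutant 2), with 8175944 to 80755665 UMIs, counts of distinct captured transcripts. Levels are given as CPM, the gene's share of all UMIs of the same cells scaled to 1000000. UMIs tag transcript ends, so CPM is not scaled by gene length, and levels are compared here between cells, and between genes only to pick 1 gene per role of the pathway. Myrf stood at 76.0 and 48.5 CPM in the controls and at 19.1 and 7.22 CPM in the mutants (log2 change -2.22, edgeR adjusted p = 0.131). The floxed exons are not named in the labels, so this 3' level checks neither the deletion nor the labels. The labelled cell type is mesothelial, and 14 mesothelial markers summed to 2287 and 1895 CPM in the controls and to 377 and 209 CPM in the mutants.

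Clusters were made with 55 retinoic acid pathway genes left out, so that no member placed a cell, and were named from fixed marker lists. Mesothelial-like cells (clusters 5 and 11) made up 38.8 and 21.0% of the control cells and 0.487 and 0.0936% of the mutant cells. The mutants also held a cluster led by Des and Thsd7b (cluster 3, 223 and 1087 cells, against 1 and 13 in controls) and one led by Myl4 and Actc1 (cluster 7, 28 and 260 cells, against 0 and 5). Clusters 3 and 7 carried smooth muscle and striated muscle markers together and are called by number. Cells of all 4 libraries were found in the fibroblast-like clusters 2 (Tcf21) and 4 (Lef1, Pdgfra) and in the smooth muscle-like cluster 6, and cluster 9 (Dpt, Gdf10) came mainly from control 2. Cluster 1 held 2059 of the 3503 cells of control 2, with a median of 9825 UMIs per cell against 19787 in cluster 5. In it 72.5% of the listed cell type markers differed by less than 2-fold from the remaining cells of control 2, so it stayed unnamed, as mixed. Changes over all sorted cells are also given without it. Of those 1444 remaining cells, 736 were mesothelial-like. In cluster 1 of control 2 the 14 mesothelial markers summed to 1803 CPM, against 4017 CPM in cluster 5. In cluster 1, 9 of the 14 were at least 2-fold above the other clusters, so mesothelial cells may be among its cells.

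Control mesothelial-like cells held the highest levels of both main enzymes of retinoic acid synthesis, Aldh1a2 and Aldh1a1, while Adh1 was highest in the fibroblast-like cluster 2 of every library. In the mutants, where mesothelial-like cells were nearly absent, most Aldh1a2 transcripts came from cluster 3, which also held most transcripts of Cyp26b1 and Crabp2. None of the 9 members passed the edgeR test between the genotypes in all sorted cells.

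Aldh1a2 encodes the retinaldehyde dehydrogenase that makes most retinoic acid in the embryo. In cluster 5 it stood at 1259 CPM in control 1 and 1089 CPM in control 2, with exact 95% Poisson intervals of 1223 to 1296 and 1072 to 1106. Intervals here cover counting error only. How many of all genes lay apart between the genotypes within a single cluster or in fibroblast-like cells was not counted. In control 2 the order below cluster 5 was cluster 1 (403 CPM), cluster 11 (308 CPM), cluster 6 (80.0 CPM), clusters 4 and 9 (31.8 and 26.5 CPM, intervals overlapping) and cluster 2 (14.1 CPM). Cluster 3 held 213 and 176 CPM of Aldh1a2 in mutants 1 and 2, which is lower than either control's cluster 5 and higher than any other mutant cluster with at least 20 cells. The smooth muscle-like cluster 6 held 111, 80.0, 94.7 and 54.4 CPM over the 4 libraries, and the fibroblast-like cluster 4 held 38.0, 31.8, 78.5 and 21.5 CPM. In both clusters mutant 1 lay inside or above the controls and mutant 2 below them. The 5 mesothelial-like cells that the mutants had in cluster 5 still held 1316 CPM (1 cell, 65 UMIs) and 627 CPM (4 cells, 45 UMIs).

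Counted by cells, nearly every cell of cluster 5 in the controls had the Aldh1a2 transcript. After each cell was thinned to 5000 UMIs, an Aldh1a2 UMI was found in 100% and 97.7% of cluster 5 cells in the controls (100% and 99.8% before thinning). The thinned share in cluster 3 was 50.5% and 49.4% in the mutants (90.1% and 75.3% before). Epithelial-like cells of mutant 2 served as a background, with 2.63% of thinned cells and 2.04% before thinning at a median of 17653 UMIs, against a median of 16008 UMIs in cluster 3. These were 49 cells before thinning, so this background rests on very few cells with the transcript. It is not given for the other libraries.

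Aldh1a1 encodes a related enzyme that oxidises retinaldehyde and other aldehydes. Its level was 199 and 134 CPM in cluster 5 of the controls. In cluster 6, where both mutants lay below both controls, it was 59.8, 43.8, 39.1 and 28.9 CPM across the libraries (34, 167, 31 and 153 UMIs). In cluster 3 of the mutants it stood at 29.0 and 16.1 CPM. In mutant 2 cluster 6 was therefore above cluster 3 beyond the counting intervals (24.5 to 33.9 against 14.5 to 17.8 CPM), whereas in mutant 1 the intervals of clusters 6, 7 and 3 overlapped. Aldh1a3, the third enzyme of this step, was near the limit of detection, with 14, 71, 7 and 73 UMIs in whole libraries. Its highest level in a cluster of at least 20 cells was 6.47 CPM, in cluster 9 of control 2 (11 UMIs).

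Adh1 encodes an alcohol dehydrogenase that can oxidise retinol. Cluster 2 held 861, 553, 671 and 356 CPM, and cluster 4 held 237, 169, 157 and 120 CPM, in the order control 1, control 2, mutant 1, mutant 2. The same order of clusters, 2 above 4 above 6, held in each library, with overlapping intervals between clusters 4 and 6 only in mutant 1. Cluster 5 of the controls held 23.2 and 26.9 CPM and cluster 3 of the mutants 35.5 and 36.3 CPM. An Adh1 UMI was found in 84.0, 84.8, 82.8 and 74.2% of thinned cluster 2 cells (91.7, 94.3, 93.9 and 91.3% before thinning, at median depths of 15678 to 28021 UMIs). Epithelial-like cells of mutant 2 had 5.26% (14.3% before thinning).

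**Figure D1:**
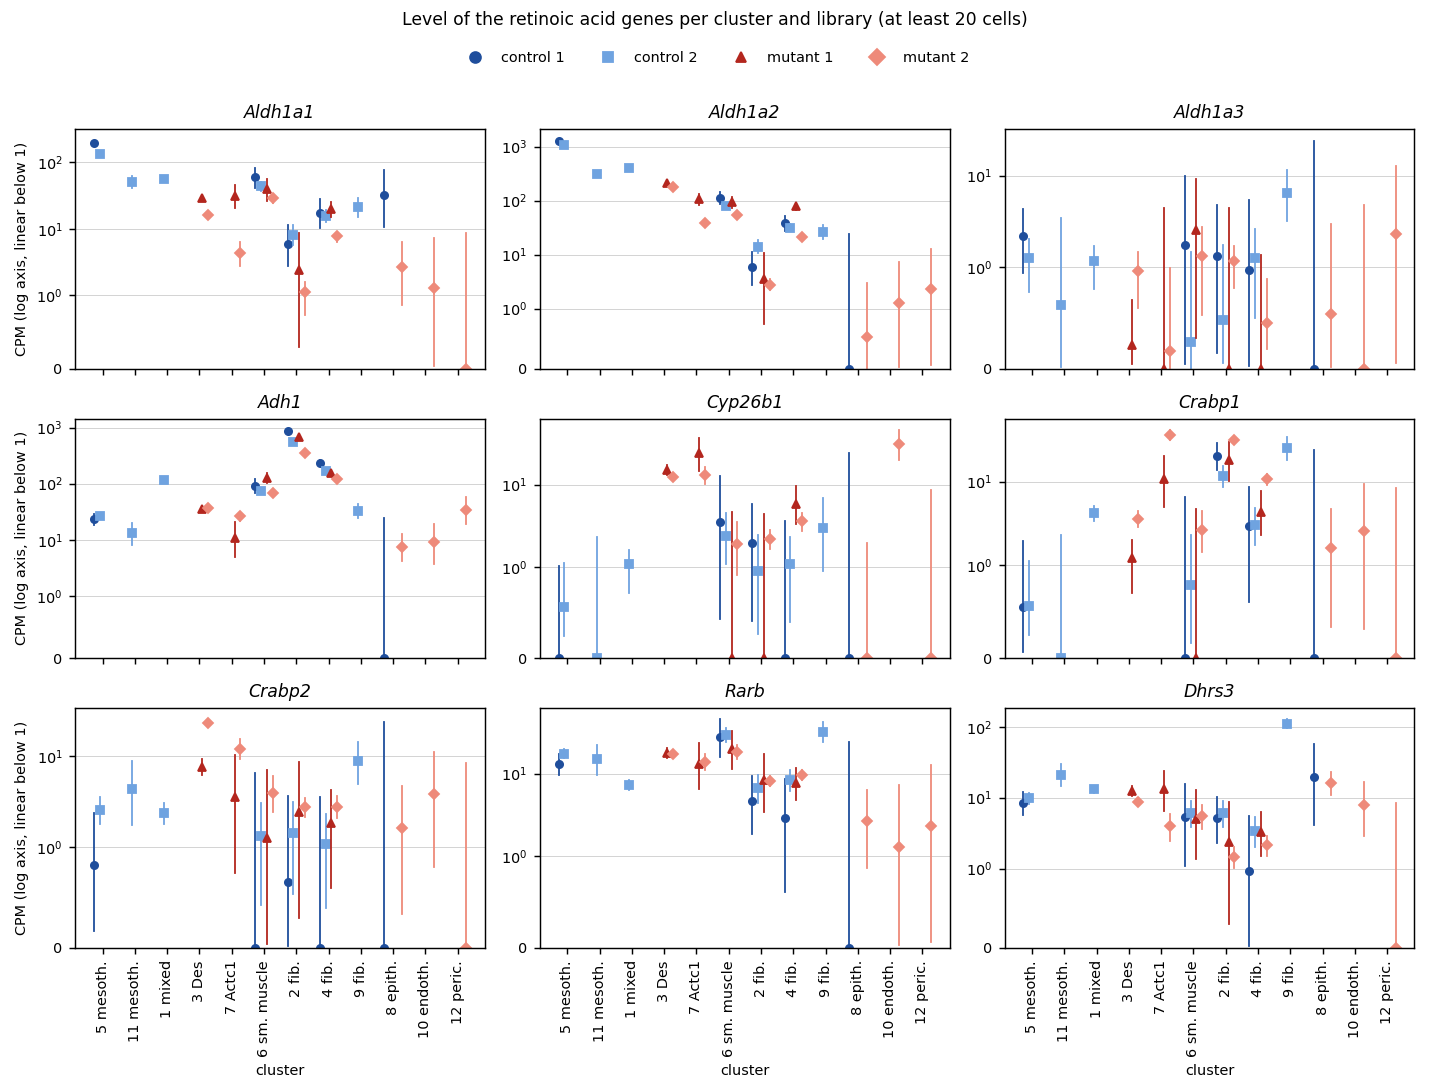
Level of each of the 9 genes (CPM, log axis that is linear below 1) in each cluster with at least 20 cells in a library, one marker per library, with exact 95% Poisson intervals as bars. Aldh1a2 falls from 1259 and 1089 CPM in the mesothelial-like cluster 5 of the controls to 213 and 176 CPM in the Des-leading cluster 3 of the mutants, and Adh1 peaks in the fibroblast-like cluster 2 of all 4 libraries.

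Dhrs3 encodes a reductase that returns retinaldehyde to retinol and is itself induced by retinoic acid. Its highest level was in the fibroblast-like cluster 9 of control 2, at 110 CPM (interval 94.8 to 127), with cluster 11 of that library next at 21.2 CPM among clusters of at least 20 cells. Endothelial-like cells held 42.3, 47.7, 56.6 and 7.77 CPM in the 4 libraries, from 14, 12, 8 and 48 cells. Epithelial-like cells held 19.7, 21.2, 39.5 and 16.1 CPM, from 21, 14, 15 and 49 cells. Cluster 5 of the controls stood at 8.46 and 9.80 CPM and cluster 3 of the mutants at 12.4 and 8.70 CPM, so these values overlapped.

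Cyp26b1 encodes the enzyme that degrades retinoic acid in many embryonic tissues. Control mesothelial-like cells hardly held it, with 0 UMIs in cluster 5 of control 1 (3 counts there would be 0.819 CPM) and 8 UMIs in control 2 (0.564 CPM). Cluster 3 held Cyp26b1 at 14.9 CPM in mutant 1 (194 UMIs) and within an interval of 11.1 to 14.0 CPM in mutant 2 (287 UMIs), and cluster 7 of the mutants held 24.0 and 12.9 CPM. The intervals of clusters 3 and 7 overlapped in each mutant. Endothelial-like cells had levels of 46.5, 29.8, 90.6 and 31.1 CPM, from 11, 15, 40 and 24 UMIs, in both genotypes. Of the named classes outside cluster 3 and cluster 7, they alone passed 10 CPM in every library that had such cells. In the fibroblast-like cluster 4, the Cyp26b1 level was 0, 1.07, 5.84 and 3.57 CPM, with both mutants above both controls and 0 and 6 UMIs in the controls.

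Crabp1 and Crabp2 encode cytosolic proteins that bind retinoic acid, and CRABP2 is known to pass it to nuclear receptors. Crabp1 stood in cluster 2 at 20.3, 11.8, 18.1 and 31.8 CPM, in cluster 7 of the mutants at 10.8 and 36.2 CPM, and in cluster 9 of control 2 at 25.3 CPM. Cluster 5 of the controls had 0.546 and 0.564 CPM, from 2 and 8 UMIs. Crabp2 followed another pattern. In cluster 3 it stood at 7.60 and 23.6 CPM in mutants 1 and 2, and in cluster 5 of the controls at 0.819 and 2.54 CPM. The interval of cluster 3 in mutant 1 (6.18 to 9.26 CPM) lay above that of cluster 5 in control 2 (1.78 to 3.52 CPM). The thinned share of cluster 3 cells with a Crabp2 UMI was 3.21% and 8.29% (13.5% and 19.5% before). Epithelial-like cells of mutant 2 had 2.63% (6.12% before). These were 49 cells before thinning, and none were from mutant 1, so they set no firm background for the share in mutant 1.

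Rarb encodes retinoic acid receptor beta, whose transcription rises with retinoic acid in many tissues. Its level was 28.1, 29.4, 20.2 and 18.3 CPM in cluster 6 and 13.1 and 17.5 CPM in cluster 5 of the controls. Cluster 3 of the mutants had 17.9 and 17.4 CPM, inside the counting intervals of cluster 5 in control 2 (15.4 to 19.8 CPM). The fibroblast-like clusters 2 and 4 were lower, at 2.92 to 9.65 CPM, while cluster 9 of control 2 reached 32.4 CPM. The Aldh1a2-rich cells of the controls and the cluster 3 cells of the mutants thus held Rarb at levels with overlapping intervals, with Aldh1a2 at 1089 CPM or more in the former and at 213 CPM or less in the latter.

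**Figure D2:**
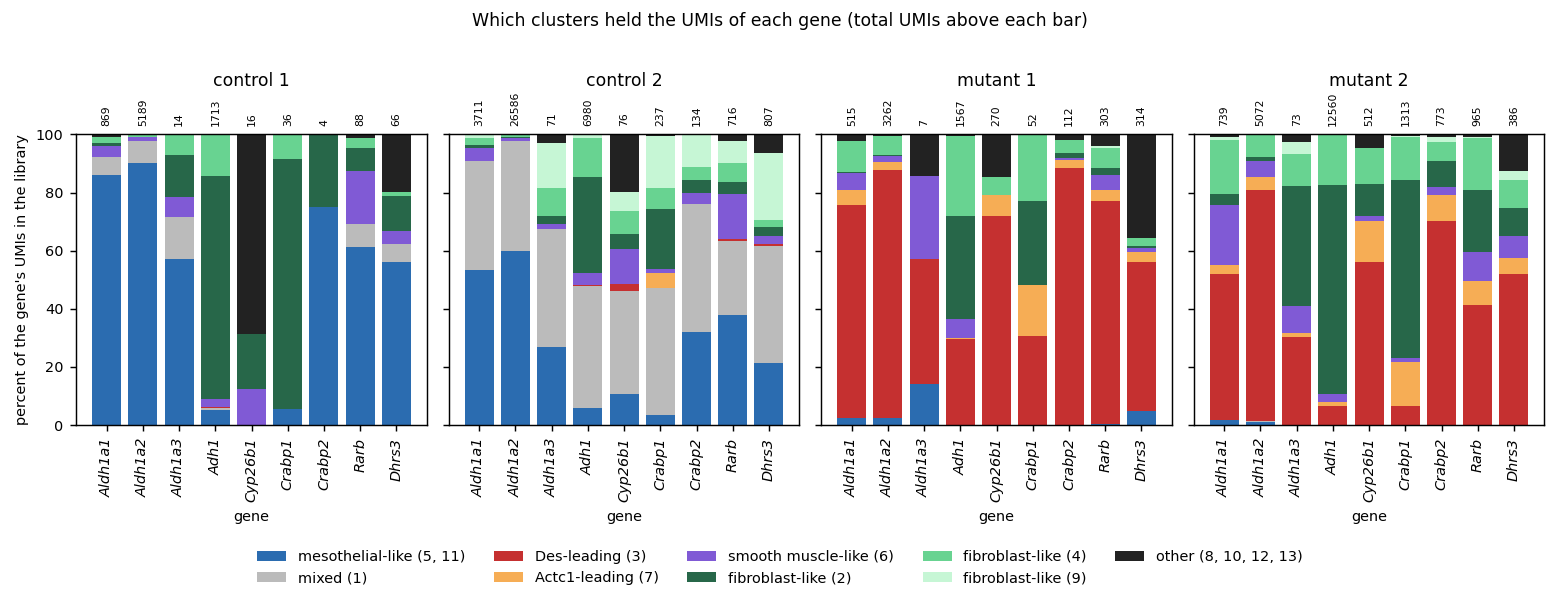
Share of each gene's UMIs (percent, bars from 0 to 100) held by each group of clusters in each library, with the gene's total UMIs in the library above the bar. Cluster 5 alone held 88.9 and 58.1% of the Aldh1a2 UMIs in the controls, and cluster 3 held 85.2 and 79.6% in the mutants.

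The cells that held these transcripts differed between the genotypes. Cluster 3 of the mutants held 71.9 and 56.1% of the Cyp26b1 UMIs and 88.4 and 70.2% of the Crabp2 UMIs of its libraries, as the plot of UMI shares by cluster shows. In control 2, cluster 1 held 37.7% of the Aldh1a2 UMIs and 42.0% of the Adh1 UMIs, so this cluster held a mesothelial and a fibroblast gene together. Of its 1851 thinned cells, 43.3% of those with Aldh1a2 had Adh1, and so had 50% of those without Aldh1a2. In cluster 5 of the same library these shares were 11.6 and 26.7%. Cluster 2 held 76.5, 33.1, 35.5 and 71.9% of the Adh1 UMIs across the libraries.

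Over all sorted cells, 3 members had both mutants below both controls and 2 had both mutants above. Of all 16246 genes tested, 17.8% lay lower in this way and 12.6% lay higher. None of the 9 members passed the edgeR test (adjusted p under 0.05), which called 0.357% of all genes, 3 higher and 55 lower in the mutants. The median log2 change was -0.23 over the members and 0.03 over all genes tested. In such pools of cells, fewer cells of a type and less RNA per cell cannot be told apart. Mesothelial-like cells made up at least 21.0% of the cells of a control library and at most 0.487% of a mutant library, and their part in each difference below was not tested, apart from the values given without them.

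Aldh1a2 stood at 635 and 458 CPM in the controls and at 156 and 62.8 CPM in the mutants. Both mutants lay below both controls, and the log2 change was -2.30 ± 0.42 (SE, n = 2 against 2 libraries, edgeR adjusted p = 0.131). With mesothelial-like cells left out the change was -0.88 (adjusted p = 1), and with the mixed cluster 1 left out as well it turned to 1.62 (edgeR adjusted p = 0.361). With only cluster 1 left out it was -2.29 (edgeR adjusted p = 0.126). The change was therefore negative over all sorted cells and positive outside mesothelial-like and mixed cells, and neither change passed.

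Aldh1a1 showed 106, 63.9, 24.6 and 9.15 CPM, again with no overlap (log2 change -2.31 ± 0.43, edgeR adjusted p = 0.131). Without mesothelial-like cells the change was -1.15, without mixed cells too -0.18, and without mixed cells alone -2.32 (edgeR adjusted p = 1, 0.997 and 0.142). Aldh1a3 had 1.71, 1.22, 0.334 and 0.904 CPM and a log2 change of -1.0 ± 0.69 (edgeR adjusted p = 0.906). Adh1 had 210, 120, 74.8 and 156 CPM, with mutant 2 between the controls, and a log2 change of -0.36 ± 0.48 (edgeR adjusted p = 0.98). In the pair of libraries with number 1 Adh1 was lower in the mutant and in the pair with number 2 higher (log2 ratios -1.46 and 0.48).

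Cyp26b1 was the member with the smallest p among the 9. It stood at 1.96 and 1.31 CPM in the controls and at 12.9 and 6.34 CPM in the mutants and the groups did not overlap. The log2 change was 2.63 ± 0.42 (edgeR adjusted p = 0.0900), and it was 1.96 without mesothelial-like cells, 1.65 without mixed cells as well and 2.56 without mixed cells alone (edgeR adjusted p = 0.849, 0.499 and 0.1). Crabp2 stood at 0.489 CPM in control 1 (4 UMIs), 2.31 CPM in control 2 and 5.34 and 9.57 CPM in the mutants. Its groups did not overlap, and the log2 change was 2.29 ± 0.73 (edgeR adjusted p = 0.389), with 2.34, 2.65 and 2.43 in the same 3 settings.

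Crabp1 stood at 4.40, 4.08, 2.48 and 16.3 CPM, so that mutant 2 alone was high and the groups overlapped (log2 change 1.34 ± 0.86, edgeR adjusted p = 0.88). Rarb stood at 10.8, 12.3, 14.5 and 11.9 CPM, with mutant 2 between the controls (log2 change 0.23 ± 0.25, edgeR adjusted p = 0.979). Dhrs3 stood at 8.07, 13.9, 15 and 4.78 CPM, where mutant 1 was the highest library and mutant 2 the lowest (log2 change -0.23 ± 0.53, edgeR adjusted p = 0.981). With only cluster 1 left out, the changes of Aldh1a3, Adh1, Crabp1, Rarb and Dhrs3 were -0.89, -0.37, 1.39, 0.091 and -0.18.

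**Figure D3:**
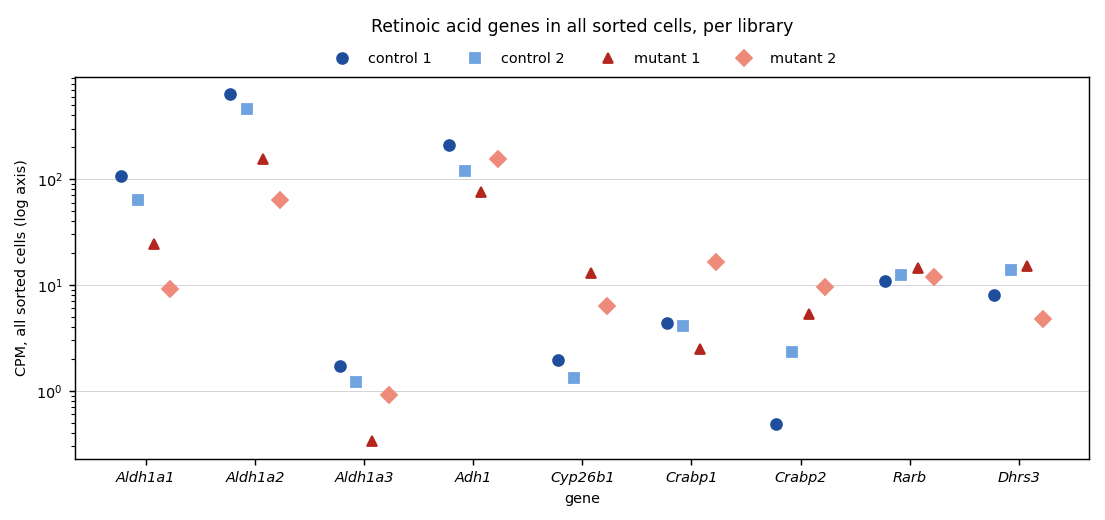
CPM (log axis) of the 9 genes over all sorted cells, one marker per library. Both mutants lie below both controls for Aldh1a1, Aldh1a2 and Aldh1a3 and above both controls for Cyp26b1 and Crabp2, and the groups overlap for the other 4 genes.

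The calls depended on the test and on single libraries. Aldh1a1, Aldh1a2, Crabp2 and Cyp26b1 had unadjusted p-values under 0.05 in edgeR, as had 1420 of all 16246 genes tested. These 4 members passed after adjustment with DESeq2, which called 499 genes (3.07% of all), and without the low-count filter, which called 685 (2.88%). They also passed with replicate number as a block, which called 525 (3.23%). With DESeq2 the adjusted p was 4.21e-07 for Aldh1a2 and 1.16e-05 for Cyp26b1. Without mutant 1, 5 members passed, the additional one being Crabp1, and 1097 genes were called (6.34%). Without mutant 2, Aldh1a1 and Cyp26b1 passed among 3.02% of all genes. Without control 2, Aldh1a1 alone of the members passed (0.725% of all genes), and without control 1 no member did (0.424%).

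**Figure D4:**
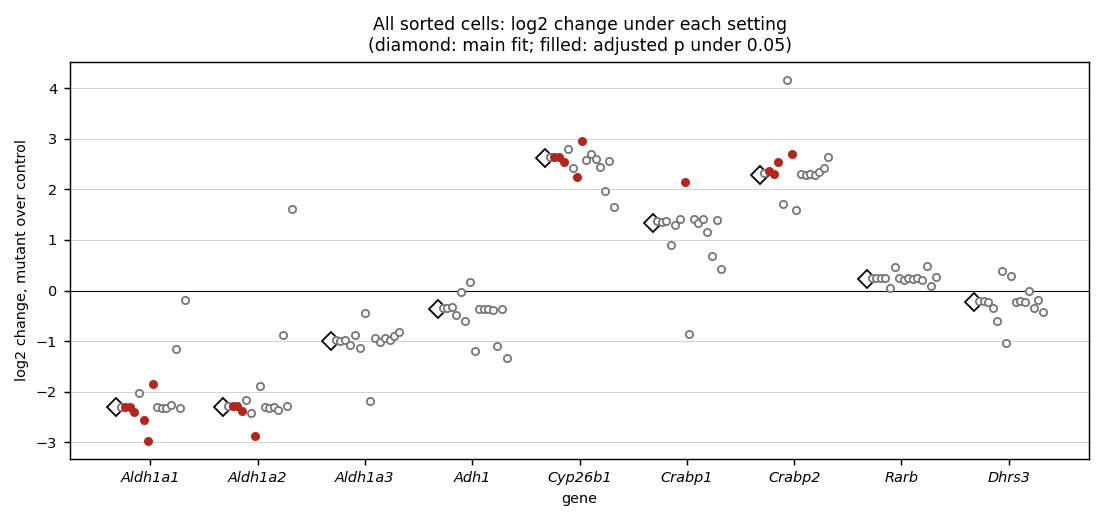
Log2 change of each gene over all sorted cells (mutant over control) in the main fit (diamond) and under each alternative setting (circles, filled where the adjusted p is under 0.05). Cyp26b1, Crabp2 and Rarb stay above 0 and Aldh1a1 and Aldh1a3 below 0 in every setting shown, while Aldh1a2 ranges from -2.88 to 1.62. The settings reuse the same libraries.

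Fibroblast-like cells were the class that all 4 libraries held in number (86, 481, 101 and 2471 cells), but not in the same mix. Clusters 2 and 4 gave 60 and 26 cells in control 1, 209 and 204 in control 2, 33 and 67 in mutant 1 and 1487 and 970 in mutant 2, and in every library Adh1 was higher in cluster 2 and Aldh1a2 in cluster 4. No gene of 12572 passed the edgeR test (0%), 248 had an unadjusted p under 0.05, and DESeq2 called 5 (0.0398%). Of the 8 members tested, none passed in edgeR or DESeq2.

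In these cells Adh1 stood at 609 CPM in control 1, 288 CPM in control 2, and 274 and 257 CPM in the mutants. Control 1 was high and the other 3 libraries were close together, and the log2 change was -0.68 ± 0.40 (edgeR adjusted p = 1). Within cluster 2 alone it was -0.44 and within cluster 4 alone -0.49 (edgeR adjusted p = 1 for both). Cyp26b1 stood at 1.18 and 1.31 CPM in the controls (3 and 15 UMIs) and at 4.44 and 2.73 CPM in the mutants, with no overlap (log2 change 1.5 ± 0.56, edgeR adjusted p = 1). In both genotypes these were low levels, and the mutant values were below those of clusters 3 and 7.

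Dhrs3 stood at 3.53, 20.1, 3.06 and 1.98 CPM in the fibroblast-like cells (log2 change -2.35 ± 0.73, edgeR adjusted p = 1). Control 2 was far above the other libraries, and 187 of its 231 Dhrs3 UMIs came from the 68 cells of cluster 9, a cluster with 0 cells in control 1. In cluster 4 alone the change was -0.032 and in cluster 2 alone -1.66. Without control 2 it was -0.45 (edgeR adjusted p = 0.999), the smallest of the range from -3.01 to -0.45 with 1 library left out. Dhrs3 passed without control 1 (edgeR adjusted p = 9.72e-07), where 0.709% of all genes were called, and without the low-count filter (edgeR adjusted p = 0.000133), where 0.591% were called.

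The other members overlapped between the genotypes in fibroblast-like cells or were too few to test. Aldh1a2 had 18.8, 24.6, 60.5 and 10.5 CPM, with mutant 1 highest and mutant 2 lowest, and Aldh1a1 had 10.6, 13.8, 15.6 and 3.97 CPM. In cluster 2 alone both mutants lay below both controls for these 2 genes, and the share of all genes that did so there was not counted. There Aldh1a2 had 5.91, 14.1, 3.61 and 2.79 CPM (9, 59, 3 and 71 UMIs, log2 change -1.69, edgeR adjusted p = 1). Aldh1a1 had 5.91, 8.15, 2.41 and 1.1 CPM in that cluster (9, 34, 2 and 28 UMIs, log2 change -2.33, edgeR adjusted p = 1). Upk3b, a mesothelial gene, stood at 5.49 and 23.9 CPM in the fibroblast-like cells of the controls and at 0.278 and 0.115 CPM in those of the mutants. In cluster 3, which held most mutant Aldh1a2, Upk3b stood at 6.3 and 19.6 CPM. Cluster 5 of the controls held 1928 and 1599 CPM of Upk3b, and the other mutant clusters of at least 20 cells at most 1.26 CPM. The part of RNA from other cells in these Aldh1a2 levels was not tested. Crabp1 had 13.3, 9.50, 7.50 and 23.1 CPM and Rarb 3.92, 11.3, 8.33 and 8.77 CPM. Crabp2 had 0.392, 2.35, 1.94 and 3.08 CPM, from 1 UMI in control 1. Aldh1a3, with 3, 20, 0 and 41 UMIs, fell below the filter on low counts.

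A finer clustering (resolution 0.8 in place of 0.4) divided the mutant cells of cluster 3 into 2 main sets that differed in these genes. One was led by Thsd7b and Cldn11 (122 and 639 cells in mutants 1 and 2) and the other by Des and Krtdap (101 and 415 cells). The finer Thsd7b cluster also took 91 cells of the fibroblast-like cluster 4, and the values here leave out all cells from outside cluster 3. The members did not place these cells, and the values are a description.

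Cyp26b1 stood at 21.9 and 17.7 CPM in the Thsd7b set and at 5.93 and 6.24 CPM in the Des set. Crabp2 went the other way, at 4.39 and 9.92 CPM in the Thsd7b set and 11.7 and 43.3 CPM in the Des set. In each mutant the counting intervals of the sets did not overlap for either gene. Adh1 was 59.4 and 53.0 CPM in the Thsd7b set against 5.06 and 16 CPM in the Des set, and Aldh1a2 was 189 and 129 CPM against 245 and 246 CPM, again apart in both mutants. The synthesis enzyme Aldh1a2 and the degrading enzyme Cyp26b1 were thus higher in different sets. Rarb was 19.1 and 20.4 CPM against 16.4 and 13.5 CPM, with overlapping intervals in mutant 1.

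**Figure D5:**
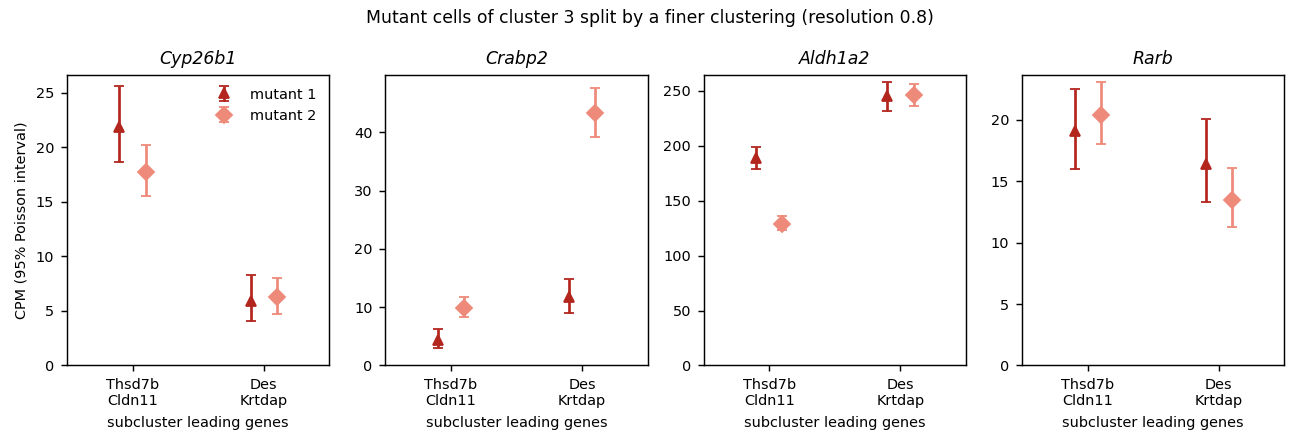
CPM of Cyp26b1, Crabp2, Aldh1a2 and Rarb in the Thsd7b set and the Des set of the mutant cells of cluster 3, one marker per mutant library, with exact 95% Poisson intervals. Cyp26b1 is higher in the Thsd7b set (21.9 and 17.7 against 5.93 and 6.24 CPM), and Crabp2 and Aldh1a2 are higher in the Des set.

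In single cells of cluster 3, few held both Cyp26b1 and Crabp2. Of the 1062 thinned cluster 3 cells of mutant 2, 56 had a Cyp26b1 UMI and 88 a Crabp2 UMI, and 2 had both. That is 3.57% of the Cyp26b1 cells, against 8.55% of the cells without Cyp26b1. In mutant 1, 12 and 7 of 218 cells had one or the other and 0 had both. In mutant 2 the shares went the other way in cluster 7, with 2 of 12 Cyp26b1 cells (16.7%, against 4.51% of the others), and in cluster 4, with 2 of 15 (13.3% against 1.41%). Aldh1a2 was found with Crabp2 in 53 of the cluster 3 cells of mutant 2, 10.1% of the cells with Aldh1a2 against 6.52% of the others. Cyp26b1 was found in 6.1% of the cluster 3 cells with Aldh1a2 and 4.47% of those without in mutant 2, and in 4.55% and 6.48% in mutant 1, so the direction differed between the mutants. These cells share a library, and such sparse counts give a description only.

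The members stood among 55 listed genes of retinol handling, receptors, cofactors and response, all found in the files. Of the 46 that are no members, 43 could be tested over all sorted cells and none passed in edgeR. Their log2 changes were above 0 for 24 and below 0 for 19, with a median of 0.10. Of these 43, 8 had an unadjusted edgeR p under 0.05, against 1420 of all 16246 genes tested. In fibroblast-like cells 34 of the 46 were tested, none passed and none had an unadjusted p under 0.05. Of the retinaldehyde dehydrogenases, all 3 tested had negative changes over all sorted cells, and the 6 receptors were split, 3 above and 3 below 0 with a median of 0.00.

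One gene per role was picked by its highest CPM in a cluster of at least 20 cells, and members were picked for retinoic acid formation (Aldh1a2), retinol oxidation (Adh1) and breakdown (Cyp26b1, at 31.1 CPM in endothelial-like cells of mutant 2). For binding proteins it was Fabp5, a fatty acid-binding protein that also carries retinoic acid, at 1108 CPM in cluster 11 of control 2. Among receptors it was Rara, at 60.4 CPM in cluster 3 of mutant 2, among cofactors the corepressor Nrip1, at 520 CPM in cluster 6 of mutant 1, and among response genes Rarres2, which encodes chemerin, at 706 CPM in cluster 11 of control 2.

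Across 25 sums of a cluster in a library, the genes with profiles most like a member's were found by Pearson's r of log2(CPM + 1). The sums share libraries and depth, and r is a description. For Aldh1a2 they were Tdo2 (0.931), Dpysl5 (0.929) and Tgfb3 (0.928), and for Aldh1a1 Dock5 (0.903), H19 and Creb3l2. For Adh1 they were Frem1 (0.932), Snai2 and Vcam1, for Rarb Pcdh7 (0.886), Chrd and Prss35, and for Dhrs3 Anxa1 (0.834), Atp11a and Fbln5. For Cyp26b1 they were Gimap8 (0.858), Dysf and Syt1, for Crabp1 Fgf10 (0.784), Gm266 and Col25a1, and for Crabp2 Ren1 (0.759), Lum and Tnfrsf12a, while Aldh1a3 was below the minimum of 20 CPM for this comparison. Among the members themselves, Aldh1a1 and Aldh1a2 were most alike (r = 0.809), followed by Aldh1a2 and Rarb (0.701) and by Cyp26b1 and Crabp2 (0.604).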

How the data were processed

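The authors deposited raw UMI counts for each gene and barcode, made with Cell Ranger 6.0.2 on mm10, per the submitters' processing notes. Annotation release, barcode calling settings and use of strand are not given in the sources used here. Sample titles gave the groups and replicate numbers. Barcodes with at least 1000 genes and at most 15% mitochondrial UMIs passed (8733 of 9586). The automatic threshold of Scrublet marked 5, 2, 2 and 0 and did not work, so top-scoring barcodes were dropped at a rate of 0.8% per 1000 (1, 104, 1 and 157), leaving 8470 cells. Libraries shared at most 4 barcodes. Cells were clustered in scanpy 1.11.5 (3000 variable genes without 505 cell cycle genes and the 55 retinoic acid genes, 30 principal components, 15 neighbours, Leiden resolution 0.4) and named after the marker list with most members in at least 10% of the cells and at least 2-fold above other clusters, 3 needed.

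UMI counts were summed per library. The test was that of edgeR 4.0.16 under R 4.3.3 (low counts filtered by filterByExpr, TMM, quasi-likelihood, two-sided, Benjamini-Hochberg over all genes tested), with no covariate, and with DESeq2 1.42.0 as an alternative. On simulated data edgeR recovered 16, 94, 100 and 100% of genes changed 2-, 4-, 8- and 16-fold among 15904 genes of all sorted cells, with 9 false calls. For fibroblast-like cells it recovered 30, 94, 100 and 100% among 12190 genes, with 6 false calls. The changed genes were drawn only from those above a set mean level. All simulated libraries shared the same mean profile, without a shift in the mix of cell classes. These shares therefore do not tell how often a change of a member would be called in the real libraries. The text names all 9 members, other listed pathway genes that passed or had the highest level of their role, the 3 genes most like a member, and Myrf as the targeted gene. The highest gene of 1 role is not reported here. Other genes (Upk3b, and pathway genes of the closing observations) were named after their values were seen. Wt1 was also checked, at 82.1, 78.0, 25.0 and 13.6 CPM over the libraries. The members and lists were chosen with earlier results of these data known. Gene IDs of 32158 of 32285 rows matched GENCODE vM21, and 7 of 9 members had a RefSeq promoter entry.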

Additional observations from a re-analysis of the deposited data

Results flagged for a closer look

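In cluster 2 (fibroblast-like) Rarb stood at 8.43 and 8.07 CPM in the mutants, above the 4.6 and 6.71 CPM of the controls. In cluster 6 (smooth muscle-like) it was lower in both mutants, at 20.2 and 18.3 CPM against 28.1 and 29.4 CPM. The result stands out because both mutants lay above both controls in cluster 2 and below both in cluster 6. The log2 ratios of the group means differed by 1.12 between the 2 clusters. The difference was not tested, and how many of all genes differed in this way was not counted. The counts are small, with 7 Rarb UMIs each in cluster 2 of control 1 and mutant 1 and 16 each in cluster 6 of those libraries, and the counting intervals of those libraries overlapped between the genotypes in both clusters.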

How the results depend on the processing

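Leaving out 1 library leaves a group with a single library that is assumed to vary like the others. Over all sorted cells, against 58 genes called, DESeq2 called 499, no low-count filter 685, the replicate block 525, equal cell numbers 36, mixed barcodes left out 37, and both settings without mesothelial-like cells 0. The settings with 1 library left out called 74 to 1097. In fibroblast-like cells, against 0, DESeq2 called 5, no low-count filter 125, the replicate block 9 and leaving out 1 library 27 to 98, of which without control 2 gave 27. Replicate numbers came from the titles and are not tied to a pool in the labels. Same-numbered libraries deviated together (r = 0.362 and 0.267), but 2 pairs cannot show a pairing. Some directions turned. Over all sorted cells Aldh1a2 turned to 1.62 with mesothelial-like and mixed cells left out, Adh1 to 0.17 without mutant 1 (range with 1 library left out -1.21 to 0.17), Crabp1 to -0.87 without mutant 2 (-0.87 to 2.15), and Dhrs3 to 0.38 without control 2 and 0.29 without mutant 2 (-1.04 to 0.38). In fibroblast-like cells Aldh1a1 turned to 0.22 without mutant 2 (-1.39 to 0.22) and 0.13 with equal cell numbers. Aldh1a2 turned to -0.82 without mutant 1 (-0.82 to 1.35), -0.39 at resolution 0.8 and -1.69 in cluster 2 alone. Crabp1 turned to -0.67 without mutant 2 (-0.67 to 1.33). Rarb turned to -0.31 without control 1 and -0.09 without mutant 2 (-0.31 to 1.25) and to -0.034 with the retinoic acid genes kept in the clustering. The cause was not tested. None of these passed. Mean Adh1 in fibroblast-like cells of the mutants, 266 CPM, became 283 with the retinoic acid genes kept in the clustering and 359 at resolution 0.8. At that resolution the mean over the muscle clusters 3, 6 and 7 of the mutants became 7.81 CPM for Cyp26b1 (12.8 before) and 16.4 CPM for Rarb (17.3 before), where the Thsd7b set and 228 cells of cluster 6 no longer carried that class name. The analyses of cluster 2 alone and cluster 4 alone, and the one without both mesothelial-like and mixed cells, were chosen after seeing the data. Control 1 and mutant 1 hold the fewest cells, and levels of a few CPM there rest on under 10 UMIs in most clusters.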

Other observations

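Several listed pathway genes that are no members lay apart between the genotypes without passing the test. Those below were picked after their values were seen, and others that lay apart are not named. Over all sorted cells, 17.8% of the 16246 genes tested lay lower in both mutants and 12.6% lay higher. Rarres1, a retinoic acid-induced gene, stood at 8.81 and 14.1 CPM in the controls and at 0.716 and 1.08 CPM in the mutants (log2 change -3.56, edgeR adjusted p = 0.0672), and its highest level was 64.9 CPM in the mesothelial-like cluster 11 of control 2. Lrat, which esterifies retinol for storage, stood at 26.4, 13.7, 10.0 and 3.21 CPM over all sorted cells and at 47.2 and 33.4 CPM in cluster 5 of the controls. Stra6, the retinol uptake receptor, went the other way, at 0.489, 0.293, 2.67 and 1.25 CPM (log2 change 2.44, edgeR adjusted p = 0.254).

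Rdh10, the enzyme that makes retinaldehyde in the early embryo, and Dhrs9 were also named after their values were seen. Rdh10 stood at 92.5 and 110 CPM in cluster 5 of the controls, 50.4 and 46.6 CPM in cluster 3 and 124 and 89.4 CPM in cluster 7 of the mutants, against 1.31 to 9.83 CPM in the Adh1-rich cluster 2. In cluster 7, where Rdh10 was highest in the mutants, Aldh1a2 stood at 106 and 39.3 CPM, below cluster 3. Dhrs9, a retinol dehydrogenase, was at 20 CPM in cluster 11 of control 2 and at 0.282 CPM in cluster 5 of that library.

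Myrf itself was highest in the mesothelial-like clusters of the controls. It had 140 and 102 CPM in cluster 5 of the controls, 105 CPM in cluster 11 of control 2 and 43.9 CPM in cluster 1. Its level was 25.5 and 17.7 CPM in cluster 3 of the mutants, against 1.97 to 5.04 CPM in cluster 2 of the 4 libraries.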
